A study of Mus musculus with 12 samples.

Results

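The loss of estrogen receptor alpha was examined in the fibrocartilage of the mandibular condyle, the joint surface of the lower jaw, of mice that all received 17β-estradiol (E2). The comparison set 3 libraries from estrogen receptor alpha knockout mice under E2 (ERalphaKO E2) against 3 libraries from wild-type mice under E2 (WT E2), 6 of the 12 libraries of the study, chosen by genotype and agent in the sample labels. All genes were members: 23284 were listed and 14832 had enough counts to be tested. The other 6 libraries came from 4 ERalphaKO and 2 WT samples under placebo, and they served to show where each E2 group stood relative to hormone-deprived tissue. Every animal was a female C57BL/6 mouse that had lost its ovaries at 16 weeks of age, so neither genotype had ovarian estrogen. A pellet with placebo or with 0.01 mg E2, made to release over 60 days, was carried for 1 week until harvest at 17 weeks. RNA came from all cells of the dissected tissue, and the labels name neither the part of Esr1 that the knockout removes nor whether each library of a group is another animal. The spread that p-values measure is therefore that of these samples and may be technical.

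Estrogen receptor alpha is a ligand-activated transcription factor that binds estradiol and then acts at estrogen response elements or through other bound factors. Condylar fibrocartilage is a secondary cartilage, with a fibrous surface rich in type I collagen above chondrocytes that mature and are replaced by bone. In other estrogen-responsive tissues Greb1 and Pgr are textbook targets of the receptor.

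Promoter windows are shown for genes that the results turn on, to place the largest differences beside the letters of their start regions. Greb1 and Pgr are the classic targets, Trpc6 is the gene next to Pgr on chromosome 9, and Limch1 stands for the genes that were higher in ERalphaKO E2 libraries. Each window is 300 bases of RefSeq sequence on GRCm38.p6, from 250 bases before the start to 50 after it, whereas the deposited counts rest on mm9, so these coordinates are not those of the count table. Capitals mark GGTCA, 1 arm of the estrogen response element, and GGGCGG, the GC box bound by Sp factors, on either strand.
Greb1, chr12:16800837-16801136, minus strand, 1 of 2 listed starts: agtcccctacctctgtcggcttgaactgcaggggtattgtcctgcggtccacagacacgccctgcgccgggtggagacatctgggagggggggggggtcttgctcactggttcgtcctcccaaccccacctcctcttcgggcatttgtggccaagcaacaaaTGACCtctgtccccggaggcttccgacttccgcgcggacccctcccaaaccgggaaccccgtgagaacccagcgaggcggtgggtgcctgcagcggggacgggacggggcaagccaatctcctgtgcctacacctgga
Trpc6, chr9:8543892-8544191, plus strand: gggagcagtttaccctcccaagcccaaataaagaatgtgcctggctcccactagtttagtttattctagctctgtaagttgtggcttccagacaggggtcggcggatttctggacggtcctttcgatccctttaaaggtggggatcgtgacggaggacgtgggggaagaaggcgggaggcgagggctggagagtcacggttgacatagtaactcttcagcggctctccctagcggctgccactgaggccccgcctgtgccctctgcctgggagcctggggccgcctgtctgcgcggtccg
Pgr, chr9:8899583-8899882, plus strand: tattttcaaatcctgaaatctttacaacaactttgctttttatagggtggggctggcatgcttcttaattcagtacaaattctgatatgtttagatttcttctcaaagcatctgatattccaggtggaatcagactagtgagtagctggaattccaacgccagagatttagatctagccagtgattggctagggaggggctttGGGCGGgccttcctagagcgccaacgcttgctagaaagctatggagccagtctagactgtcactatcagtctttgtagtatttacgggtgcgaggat
Limch1, chr5:66745639-66745938, plus strand, 1 of 3 listed starts: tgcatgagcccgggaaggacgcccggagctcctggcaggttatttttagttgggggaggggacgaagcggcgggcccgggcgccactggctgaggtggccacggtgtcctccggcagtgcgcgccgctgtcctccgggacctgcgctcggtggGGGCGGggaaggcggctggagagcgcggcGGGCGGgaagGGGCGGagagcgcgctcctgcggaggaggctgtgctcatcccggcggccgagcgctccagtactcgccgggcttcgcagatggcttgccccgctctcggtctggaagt

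The Greb1 window held 1 GGTCA and the Pgr window 1 GC box, the Limch1 window held 3 GC boxes, and the Trpc6 window held neither motif. The full palindromic estrogen response element, both arms with any 3 bases between them, searched on both strands, stood in the windows of 0 of 66 lower genes and 0 of 44 higher genes for which a window was listed. It stood in 1 of the 10480 tested genes with a window, so these counts of 0 carry no information. The letters GGTCA alone, a motif added after the first search, stood in 33 of the 66 lower genes, 14 of the 44 higher genes and 42.4% of those tested genes. A GC box stood in 59.1% of both gene groups and in 66.2% of tested genes. The other motifs searched on both strands were TGANTCA, the AP-1 site, and TTCNNNGAA, the GAS element. TGANTCA stood in 4.55% of lower, 2.27% of higher and 6.59% of tested genes. TTCNNNGAA stood in 6.06% of lower, 13.6% of higher and 8.39% of tested genes. GGTCA is part of the full element, and a match in these windows describes letters, not binding.

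The ERalphaKO E2 libraries had total counts of 16304880, 9696434 and 19864577, and the WT E2 group had 19272014, 21642300 and 19282714, so 3 counts corresponded to at most 0.315 CPM, the count scaled to library size. The defining genes of the labelled tissue, Col2a1, Acan, Sox9, Comp, Col1a1, Col3a1, Prg4 and Scx, all had counts, with means between 21.6 and 41186 CPM in ERalphaKO E2 libraries and between 22.6 and 30024 CPM in WT E2 libraries. Skeletal muscle markers differed between the E2 groups, with a median log2 fold change of -4.23, whereas under placebo it was 0.66, of the opposite sign. Their mean log2 CPM was between -0.71 and 1.32 in ERalphaKO E2 libraries and between 3.32 and 5.45 in WT E2 libraries, with all 20 tested markers negative and 19 without overlap. None of them was called by edgeR or DESeq2, 5 had an unadjusted p under 0.05, and 17 were called in the authors' deposited table. Tnnc1, a troponin gene outside that list and chosen after its values were seen, was called lower in ERalphaKO E2 libraries by edgeR. Its log2 fold change lay between -2.80 and -2.11 when single libraries were left out. The call was kept in 4 of 12 such omissions and ended with muscle markers as a covariate. Granulocyte markers ranged from -0.60 to 6.79 in ERalphaKO E2 libraries and from -2.08 to 4.49 in WT E2 libraries. The calls that ended with either list as a covariate are named at the end of the results.

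Esr1, the targeted gene, stood at 5.66, 5.78 and 4.55 CPM in ERalphaKO E2 libraries, against 10.6, 8.52 and 12.04 CPM in WT E2 libraries. The groups did not overlap, but transcript was counted in every ERalphaKO library. The log2 fold change was -0.97 ± 0.20 (SE), and with an adjusted p of 0.0549 Esr1 did not pass the threshold of 0.05 under E2 (edgeR quasi-likelihood test, adjusted over all genes tested). In the authors' deposited table Esr1 had a log2 fold change of -0.93 and an adjusted p of 0.00299. Transcript counts do not show how much functional receptor remained.

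Loss of the receptor under E2 went with near absence of transcripts that WT E2 libraries held, among them Greb1, the protease inhibitors A2m and Pi15 and the calcium channel gene Trpc6, and with higher levels of Limch1, the phosphate importer gene Slc20a2 and the complement inhibitor gene Cd59a. In all, 163 genes passed an adjusted p of 0.05, which is 1.1% of the 14832 tested. Of these, 96 were lower in ERalphaKO E2 libraries (0.647% of those tested) and 67 were higher (0.452%). The lower genes differed by more, with 33 of the 96 changed at least 4-fold and 13 at least 16-fold, against 10 and 1 of the 67 higher genes. The median log2 fold change was -1.38 among lower genes and 1.09 among higher genes, with a median of -0.0031 over all genes. All 163 genes had no overlap between the libraries, which held for 8.94% of all genes with ERalphaKO below WT and 6.97% with ERalphaKO above. An unadjusted p under 0.05 by edgeR was reached by 1707 of the 14832 genes under E2, the background for such counts in each gene list.

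**Figure D1:**
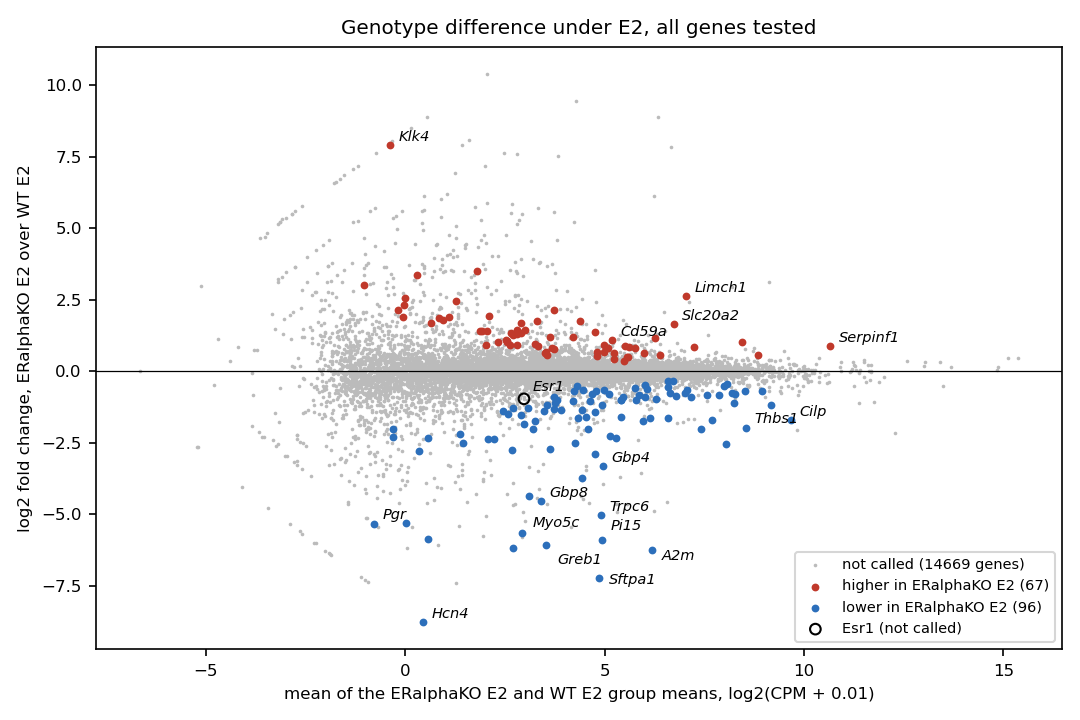
Each point is a tested gene, with log2(CPM + 0.01) of the mean of both groups on the horizontal axis and its log2 fold change, ERalphaKO E2 over WT E2, on the vertical axis. Coloured points are the 67 higher and 96 lower genes past an adjusted p of 0.05. Lower genes reach further from 0 than higher genes. The fitted values of Hcn4 and Klk4 depend on the prior count, since 1 group had 0 counts.

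With only the 6 E2 libraries in the fit, 56 genes were lower and 10 higher, and DESeq2 called 252 lower and 245 higher, so the share of higher genes was 41.1% by edgeR, 15.2% in the 6-library fit and 49.3% by DESeq2. The counts also depended on single libraries. Without ERalphaKO E2 replicate 1, 3 or WT E2 replicate 1, 3, the higher genes numbered 16, 19, 26 and 36, and the lower genes 35, 36, 42 and 56. Without WT E2 replicate 2 there were 172 lower genes, and without WT placebo replicate 1 or 2 or ERalphaKO placebo replicate 2 or 4, which enter through the shared spread, there were 36, 36, 39 and 43 higher genes. Of the 163 calls, 44 were kept without any 1 of the 12 libraries, 31 of them lower and 13 higher. After adjustment for muscle markers 56 genes were lower and 25 higher.

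Estrogen target genes were split, with 2 of 22 tested members called lower by edgeR, 0 called higher and a list median of -0.05. DESeq2 called 4 of the 22, 4 were called in the authors' deposited table, and 8 had an unadjusted p under 0.05 by edgeR. Without overlap, 8 were lower and 3 higher in ERalphaKO E2 libraries, beside 8.94% and 6.97% of all genes. Greb1, an estrogen-induced growth regulator in breast cells, stood at 0.482, 0.315 and 0.204 CPM in ERalphaKO E2 libraries, against 26.3, 17.4 and 25.0 CPM in WT E2 libraries. The groups were far apart, and all 6 placebo libraries lay at the low end, between 0.117 and 0.257 CPM. Greb1 fell 67.9-fold (log2 fold change -6.09 ± 0.33, adjusted p = 1.63e-05). Pgr, the progesterone receptor, had 1 count in the ERalphaKO E2 group and 68 counts in the WT E2 group, a ratio of 51.2 in favour of WT (95% counting interval 8.88 to 2051). It passed the test with an adjusted p of 0.0175, but not without WT E2 replicate 1 or without any 1 of the ERalphaKO E2 libraries (highest adjusted p = 0.098).

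Other textbook targets did not pass by edgeR. Stc2, a secreted glycoprotein gene, averaged 7.69 CPM in ERalphaKO E2 libraries and 34.7 CPM in WT E2 libraries, without overlap (-2.20 ± 0.47, adjusted p = 0.059). Ccnd1, Myc and Xbp1 had log2 fold changes of 0.09, -0.11 and 0.07. Among 19 tested steroid and nuclear receptors, Pgr was the lower call and Rarb, a retinoic acid receptor, the higher one (0.93 ± 0.19, adjusted p = 0.0476, kept in 2 of 12 omissions of a library). Esr2, the gene of estrogen receptor beta, was not among the genes tested. None of the 22 tested receptor coregulators on the list was called by edgeR, DESeq2 or the authors' deposited table, and 0 of them had an unadjusted p under 0.05. Ncoa7, a nuclear receptor coactivator gene outside that list and chosen after its values were seen, was called lower by all 3. Its log2 fold change lay between -0.588 and -0.426 over the omissions, and its edgeR call was kept in 2 of 12. That call also ended with muscle markers as a covariate or with only the 6 E2 libraries. Of 16 tested steroid-converting enzymes, Akr1c14, a hydroxysteroid dehydrogenase, was lower (-1.49 ± 0.29, adjusted p = 0.0405, kept in 3 of 12 omissions).

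**Figure D2:**
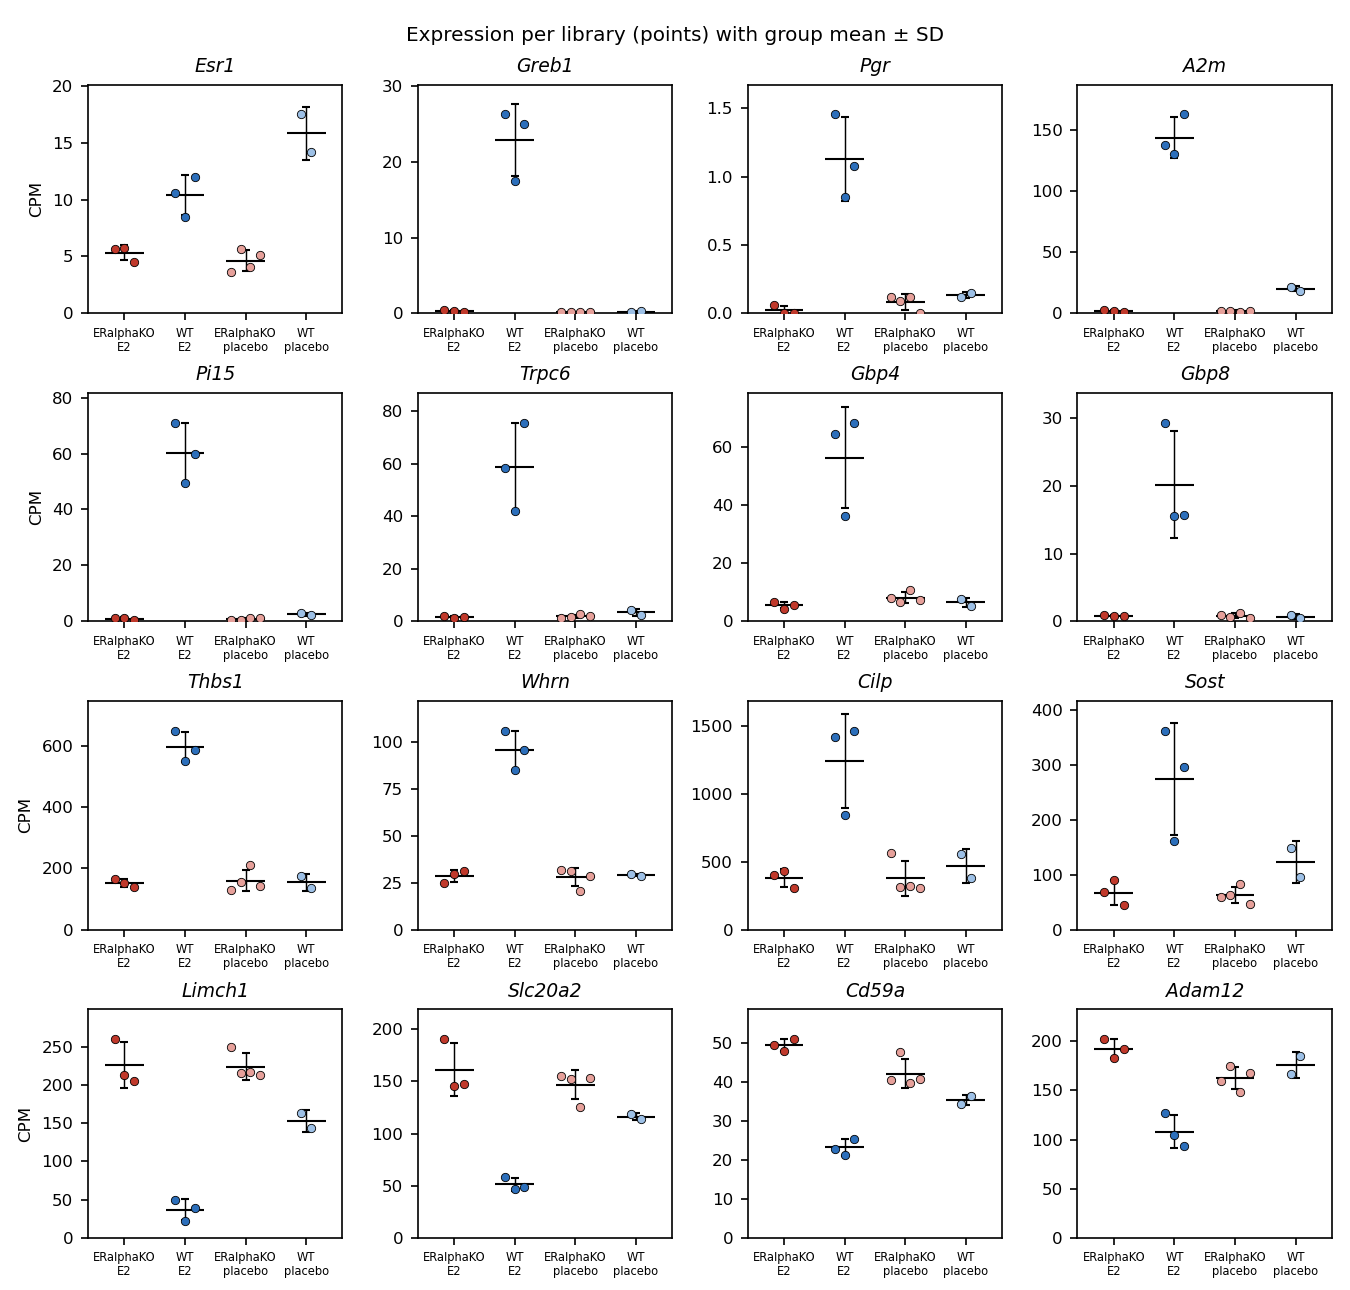
CPM of 16 genes in each of the 12 libraries, with ERalphaKO E2, WT E2, ERalphaKO placebo and WT placebo from left to right. Points are single libraries and the line with its error bar is the group mean ± SD. For Greb1, Trpc6, Gbp4 and Thbs1 the WT E2 libraries lie above the other 9, and for Limch1 and Slc20a2 they lie below the other 9.

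A2m, the broad protease inhibitor alpha-2-macroglobulin, stood at 2.71, 1.89 and 1.12 CPM in ERalphaKO E2 libraries, against 137.3, 130.3 and 162.5 CPM in WT E2 libraries. It fell 75.7-fold (-6.24 ± 0.34, adjusted p = 1.63e-05), and it was the 1 gene called in the same direction under placebo (-3.59 ± 0.29, adjusted p = 0.00179). Placebo libraries held 0.852 to 2.03 CPM in ERalphaKO and 18.5 and 21.7 CPM in WT, so A2m was low in all 7 ERalphaKO libraries. Pi15, a secreted peptidase inhibitor gene, stood at 1.33, 1.26 and 0.511 CPM in ERalphaKO E2 libraries, against 71.1, 49.5 and 59.9 CPM in WT E2 libraries (-5.91 ± 0.40, adjusted p = 0.0001). Sftpa1, the surfactant collectin best known from lung, stood at 0.482, 0.420 and 0.256 CPM in ERalphaKO E2 libraries, against 56.8, 25.2 and 89.9 CPM in WT E2 libraries (-7.23 ± 0.66, adjusted p = 0.000449). The calls of these 3 genes were kept without any 1 of the 12 libraries.

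Trpc6, a receptor-operated calcium channel, stood at 2.05, 1.37 and 1.84 CPM in ERalphaKO E2 libraries, against 58.4, 42.0 and 75.6 CPM in WT E2 libraries (-5.04 ± 0.36, adjusted p = 0.000105). It was the 1 call among 18 tested TRP channels, whose median was 0.01. Hcn4, a hyperpolarization-activated channel known from the heart's pacemaker, had 0 counts in the ERalphaKO E2 group and 163 counts in the WT E2 group, at least 40.9-fold lower against a floor of 3 counts over the group. Shank2, a synaptic scaffold, fell 20.7-fold, the myosin motor gene Myo5c 50.7-fold and Lgi2, a secreted protein known from the brain, 72.0-fold. The Lgi2 value rested on 0.361, 0 and 0.102 CPM in ERalphaKO E2 libraries, against 14.9, 9.46 and 13.9 CPM in WT E2 libraries, and its log2 fold change was -6.17 ± 0.68 and -7.45 without ERalphaKO E2 replicate 1. Whrn, a scaffold of sensory hair cells chosen after its values were seen, stood at 24.9, 29.6 and 31.3 CPM in ERalphaKO E2 libraries, against 105.7, 84.7 and 95.5 CPM in WT E2 libraries (-1.74 ± 0.15, adjusted p = 0.000444). Of the low-count genes, Ripk4, a protein kinase gene, had 2 counts in the ERalphaKO E2 group, against 175 in the WT E2 group (ratio 65.9, interval 17.96 to 548) and Fam196b had 2 counts in the ERalphaKO E2 group, against 120 in the WT E2 group (ratio 45.2, interval 12.2 to 377). All 8 calls were kept without any 1 of the 12 libraries. With muscle markers as a covariate, the calls of Hcn4, Lgi2 and Fam196b ended.

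Of 9 tested guanylate-binding proteins, interferon-inducible GTPases of cell defence, 4 fell, 0 rose and all 9 had negative log2 fold changes, with a median of -1.34. Gbp4 stood at 6.51, 4.42 and 5.78 CPM in ERalphaKO E2 libraries, against 64.2, 36.3 and 68.3 CPM in WT E2 libraries (-3.32 ± 0.29, adjusted p = 0.000388). Gbp8 stood at 0.964, 0.736 and 0.869 CPM in ERalphaKO E2 libraries, against 29.3, 15.6 and 15.6 CPM in WT E2 libraries (-4.53 ± 0.42, adjusted p = 0.000449). Neither gene overlapped between the groups, and placebo libraries of both genotypes lay between 5.31 and 10.7 CPM for Gbp4. Gbp6 fell 6.80-fold (adjusted p = 0.00879, ended without ERalphaKO E2 replicate 3 with adjusted p = 0.0572) and Gbp9 2.53-fold (adjusted p = 0.0396, kept in 3 of 12 omissions). Gbp6 and Gbp10 are near-identical copies, so the split of reads between them is uncertain.

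Of 32 tested members of a wider interferon response list, 0 were called by edgeR, 2 by DESeq2 and 4 in the authors' deposited table. Of these 32, 7 had an unadjusted p under 0.05, 30 were negative and the list median was -0.46, whereas under placebo it was 0.42, of the opposite sign. Their mean log2 CPM overlapped, at 2.312 to 3.085 in ERalphaKO E2 libraries and 2.795 to 4.025 in WT E2 libraries, with the highest value in WT E2 replicate 3. Bst2, an antiviral membrane protein, averaged 14.4 CPM in ERalphaKO E2 libraries and 47.6 CPM in WT E2 libraries (-1.72 ± 0.39, adjusted p = 0.0725). Among lower genes chosen after their values were seen, Nlrc5, the transactivator of MHC class I genes, fell 3.02-fold (adjusted p = 0.0249). It lost its call with muscle markers as a covariate and was kept in 8 of 12 omissions. The cytokine kinase gene Jak1 fell 1.44-fold (adjusted p = 0.0363, kept in 3 of 12 omissions).

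Macrophage marker levels were separated by genotype under E2. The mean log2 CPM of 13 tested macrophage markers was between 4.24 and 4.55 in ERalphaKO E2 libraries and between 4.76 and 5.31 in WT E2 libraries, without overlap. Their median log2 fold change was -0.76, with 11 of 13 negative, but 1 of them, the macrophage lectin gene Mgl2, was called (3.49, 2.31 and 3.07 CPM in ERalphaKO E2 libraries, against 43.9, 18.2 and 57.5 CPM in WT E2 libraries, adjusted p = 0.0126). That call ended without any 1 of the ERalphaKO E2 libraries (highest adjusted p = 0.0774). The pan-macrophage genes Cd68 and Csf1r had log2 fold changes of 0.01 and -0.19. In whole tissue, fewer cells of a type and less RNA per cell cannot be told apart.

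Of 31 tested chemokine and receptor genes 2 fell and 0 rose, with a list median of -0.18. Cx3cr1, the fractalkine receptor, stood at 21.4, 21.0 and 21.5 CPM in ERalphaKO E2 libraries, against 66.6, 36.8 and 89.6 CPM in WT E2 libraries (-1.59 ± 0.27, adjusted p = 0.0182, lost without WT E2 replicate 1 or any 1 ERalphaKO E2 library, highest adjusted p = 0.0921). The costimulator Cd86 and the anaphylatoxin receptor C3ar1 fell 2.86-fold and 2.04-fold (adjusted p = 0.037 and 0.0442, kept in 3 and 2 of 12 omissions). Of lower genes chosen after their values were seen, Siglec1, a sialic acid receptor of resident macrophages, stood at 6.51, 6.41 and 6.19 CPM in ERalphaKO E2 libraries, against 43.5, 29.6 and 69.2 CPM in WT E2 libraries (-2.90 ± 0.28, adjusted p = 0.000639). Siglec1 and the Fc receptor-like gene Fcrls (4.03-fold, adjusted p = 0.00294) were kept without any 1 library. Csf1, the growth factor of macrophages, stood at 133.4, 133.1 and 144.3 CPM in ERalphaKO E2 libraries, against 265.1, 180.6 and 288.5 CPM in WT E2 libraries (-0.84 ± 0.15, adjusted p = 0.0277, kept in 7 of 12 omissions). The part that macrophage marker levels have in these differences was not tested.

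Of 22 tested cartilage matrix genes 19 had negative log2 fold changes, with a median of -0.32, and 1 was called by edgeR. The list median was about as low under placebo, at -0.34 for ERalphaKO over WT. DESeq2 called 4 of the 22, 4 were called in the authors' deposited table, and 11 had an unadjusted p under 0.05 by edgeR. The edgeR call was Cilp, the cartilage intermediate layer protein gene, with 404.6, 431.8 and 309.8 CPM in ERalphaKO E2 libraries, against 1418, 846.5 and 1465 CPM in WT E2 libraries. The groups did not overlap (-1.70 ± 0.29, adjusted p = 0.0224), and the call ended without any E2 library other than WT E2 replicate 2 (highest adjusted p = 0.117). Col2a1, the main cartilage collagen, averaged 1791 CPM in ERalphaKO E2 libraries and 8102 CPM in WT E2 libraries (-2.18 ± 0.54, adjusted p = 0.105), and chondroadherin, Chad, 354.5 CPM in ERalphaKO E2 libraries and 1460 CPM in WT E2 libraries (-2.04 ± 0.46, adjusted p = 0.0722). Acan, the aggrecan gene, and Sox9, the chondrocyte master factor, had log2 fold changes of -0.01 and -0.04. Of 27 tested fibrous and superficial zone genes, 0 were called by edgeR, 3 by DESeq2 and 3 in the authors' deposited table, and 5 had an unadjusted p under 0.05. Col1a2 stood at 47880, 48800 and 50370 CPM in ERalphaKO E2 libraries, against 33190, 37950 and 35720 CPM in WT E2 libraries (0.46 ± 0.14, adjusted p = 0.205).

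Thbs1, thrombospondin 1, a matrix glycoprotein that activates latent TGF-beta, was the 1 call among 14 tested thrombospondins and receptors. It stood at 165.3, 151.6 and 138.7 CPM in ERalphaKO E2 libraries, against 648.8, 551.4 and 586.9 CPM in WT E2 libraries. The WT libraries lay well above the rest, and placebo libraries ranged from 130 to 210 CPM. Thbs1 fell 3.92-fold (-1.97 ± 0.17, adjusted p = 0.000444). Of lower matrix genes chosen after their values were seen, Col8a1, a short-chain collagen, fell 3.29-fold (adjusted p = 0.00204), and Cytl1, a secreted chondrocyte factor, stood at 97.3, 77.8 and 57.6 CPM in ERalphaKO E2 libraries, against 542.4, 165.9 and 641.4 CPM in WT E2 libraries (adjusted p = 0.021, kept in 7 of 12 omissions). Adamts5, an aggrecan-cleaving protease, fell 1.95-fold (adjusted p = 0.0138, kept in 8 of 12 omissions). Thbs1 and Col8a1 were kept in all 12.

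Mineralization genes held 1 higher and 1 lower call among 19 tested, with a median of -0.38. Slc20a2, a sodium-coupled phosphate importer, stood at 190.5, 145.5 and 147.3 CPM in ERalphaKO E2 libraries, against 58.7, 47.3 and 48.9 CPM in WT E2 libraries. It was high in every library outside the WT E2 group, at 114 to 155 CPM under placebo, and rose 3.12-fold (1.64 ± 0.13, adjusted p = 0.000289). Its paralog Slc20a1 gave -0.22 ± 0.36. Mef2c, a factor of chondrocyte hypertrophy, fell 1.35-fold (adjusted p = 0.0354, kept in 3 of 12 omissions). Ibsp, bone sialoprotein, averaged 2228 CPM in ERalphaKO E2 libraries and 4654 CPM in WT E2 libraries and just missed the threshold (-1.06 ± 0.22, adjusted p = 0.0505). Among 14 tested osteoblast and osteocyte markers, with a median of -0.0070, the 1 call was Sost, the osteocyte Wnt inhibitor sclerostin. It stood at 68.2, 89.8 and 44.5 CPM in ERalphaKO E2 libraries, against 361.9, 162.1 and 296.4 CPM in WT E2 libraries (-2.02 ± 0.35, adjusted p = 0.0211). The call ended without WT E2 replicate 1 or 3 or ERalphaKO E2 replicate 1 or 3 (highest adjusted p = 0.104) and with muscle markers as a covariate.

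Signalling lists held few calls each by edgeR. Of 44 tested Wnt genes 3 were lower, the receptor Fzd10 (-2.33 ± 0.37), the ligand Wnt4 (-0.91 ± 0.15) and the coreceptor Lrp4, which binds sclerostin (-0.77 ± 0.15), with a list median of 0.0004. Wnt4 stood at 31.8, 32.8 and 28.1 CPM in ERalphaKO E2 libraries, against 62.4, 42.8 and 68.4 CPM in WT E2 libraries. Of 42 TGF-beta and BMP genes, the activin subunit gene Inhbb (-1.02 ± 0.18) and the coreceptor Tgfbr3 (-0.48 ± 0.09) were lower and the secreted protein gene Fstl1 was higher (0.57 ± 0.11). Pappa, the protease that frees insulin-like growth factors from their binding proteins, was the 1 call among 18 genes of that axis (45.4, 30.2 and 41.3 CPM in ERalphaKO E2 libraries, against 15.5, 11.96 and 18.3 CPM in WT E2 libraries, adjusted p = 0.0396). The receptor Notch3 was the 1 call among 19 Notch genes (0.82 ± 0.16). The adjusted p of these 8 genes lay between 0.0146 and 0.0406, and each was kept in 2 to 8 of the 12 omissions, with a highest adjusted p of 0.161. In the Wnt, TGF-beta and BMP, insulin-like growth factor and Notch lists, DESeq2 called 8, 5, 1 and 2 genes. The authors' deposited table called 8, 6, 1 and 2 of them, and 14, 8, 7 and 4 had an unadjusted p under 0.05 by edgeR. Called genes outside these lists, chosen after their values were seen, included the BMP ligand gene Bmp8a, which was lower (-1.04 ± 0.16, adjusted p = 0.0119, kept in 11). The Notch regulator gene Dtx4 was higher (0.454 to 0.539 over the omissions, kept in 9). Both calls ended with only the 6 E2 libraries in the fit, and that of Dtx4 with muscle markers as a covariate.

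The higher genes were led by Limch1, an activator of nonmuscle myosin II, among those with high counts. It stood at 260.1, 213.0 and 204.7 CPM in ERalphaKO E2 libraries, against 49.2, 21.8 and 39.4 CPM in WT E2 libraries. Placebo libraries were high as well, with 213 to 250 CPM in ERalphaKO and 143 and 163 CPM in WT. Limch1 rose 6.14-fold (2.62 ± 0.24, adjusted p = 0.000494), whereas Myh10, a heavy chain of nonmuscle myosin II, was 1.89-fold lower (45.2, 42.3 and 47.2 CPM in ERalphaKO E2 libraries, against 93.7, 78.9 and 81.5 CPM in WT E2 libraries, adjusted p = 0.000449). Both were kept without any 1 library and stood among 28 tested actomyosin genes, of which 3 were called, with a median of 0.01.

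Klk4, a kallikrein known from enamel, had 66 counts in the ERalphaKO E2 group and 0 counts in the WT E2 group, at least 29.2-fold higher against the floor of 3 counts over the group (adjusted p = 0.00878). Cd59a, an inhibitor of the complement attack complex, stood at 49.3, 47.9 and 51.0 CPM in ERalphaKO E2 libraries, against 22.9, 21.3 and 25.5 CPM in WT E2 libraries (1.09 ± 0.09, adjusted p = 0.000323). Adam12, a metalloproteinase, rose 1.78-fold (adjusted p = 0.00583), Sp6, a transcription factor of tooth epithelium, 3.38-fold (adjusted p = 0.00581) and Cadps2, a factor of dense-core vesicle release, 3.39-fold (adjusted p = 0.00115). The lipid kinase gene Pik3c2g rose 10.2-fold (adjusted p = 0.00878), D4Bwg0951e 4.41-fold and the membrane protein gene Tmem178 3.82-fold. All 8 calls were kept without any 1 library, but with only the 6 E2 libraries in the fit those of Adam12, Pik3c2g and Tmem178 ended (adjusted p = 0.0523, 0.0589 and 0.0505). Ptx3, a soluble pentraxin, rose 2.66-fold (adjusted p = 0.0113) but not without ERalphaKO E2 replicate 1 (adjusted p = 0.0626).

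The calls of several other large increases depended on which libraries were in the fit, while their log2 fold changes stayed positive in every omission. Chl1, a neural cell adhesion molecule, stood at 5.78, 3.05 and 3.43 CPM in ERalphaKO E2 libraries, against 0.903, 0.471 and 0.871 CPM in WT E2 libraries (adjusted p = 0.0123), and lost its call without ERalphaKO E2 replicate 1 (adjusted p = 0.0582). Lama1, Col28a1, Cacna1h and Sstr2, genes of a laminin chain, a collagen, a calcium channel and the somatostatin receptor, were kept in 1 to 4 of 12 omissions, with adjusted p-values of 0.0322 to 0.0467. Frmd3 and the secreted fetuin gene Fetub were kept in 8 each. Sox10, the Schwann cell factor, stood at 0.964, 1.05 and 0.562 CPM in ERalphaKO E2 libraries, against 0.151, 0.0941 and 0.0512 CPM in WT E2 libraries (adjusted p = 0.0129, kept in 10). Schwann cell markers had mean log2 CPM of 2.69 to 2.98 in ERalphaKO E2 libraries and 2.11 to 2.55 in WT E2 libraries, without overlap, with 1 of 11 called, and their part in the Sox10 result was not tested. Il7r, the interleukin 7 receptor of lymphoid cells, stood at 13.0, 1.997 and 4.14 CPM in ERalphaKO E2 libraries, against 0.753, 0.565 and 0.358 CPM in WT E2 libraries (adjusted p = 0.0435, kept in 2). Lymphocyte markers moved with it: 10 of 11 were positive, 0 were called by edgeR, 7 by DESeq2 and 1 in the authors' deposited table, 7 had an unadjusted p under 0.05, and their mean log2 CPM was -0.90 to 2.81 in ERalphaKO E2 libraries and -1.64 to -0.62 in WT E2 libraries. Their part in the Il7r result was not tested.

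**Figure D3:**
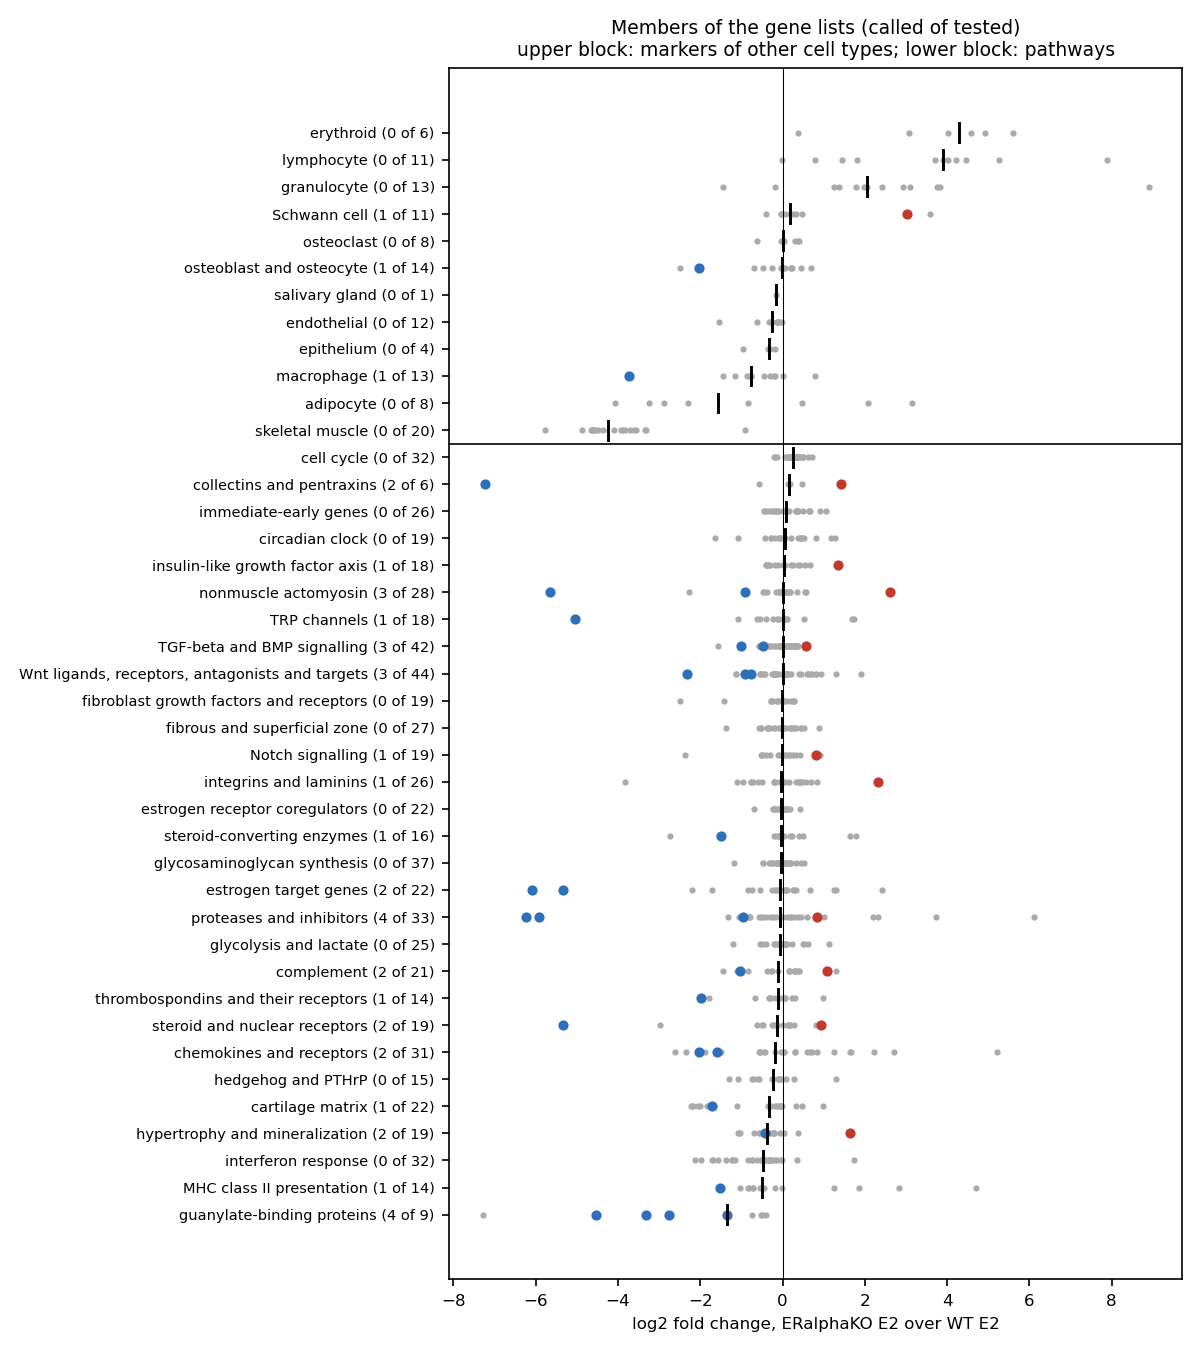
Log2 fold change, ERalphaKO E2 over WT E2, of every tested member of each gene list, with the list median as a bar and called genes coloured. Guanylate-binding proteins lie left of 0 in all 9 members, and skeletal muscle markers in all 20.

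Of 41 gene lists, 19 held no gene called by edgeR, 10 none called by DESeq2, and 6 none called in the authors' deposited table. Cell cycle genes had 29 of 32 positive, a median of 0.25, 1 unadjusted p under 0.05 and 0 calls by edgeR, DESeq2 or the authors' deposited table. Mki67, the proliferation marker, overlapped between groups (87.3, 60.2 and 102.9 CPM in ERalphaKO E2 libraries, against 48.3, 52.6 and 89.3 CPM in WT E2 libraries). The 26 immediate-early genes had 0 calls by edgeR or DESeq2, 2 in the authors' deposited table and 0 unadjusted p under 0.05, with a median of 0.09. The 19 clock genes, 25 glycolysis genes, 37 glycosaminoglycan synthesis genes and 19 fibroblast growth factor genes had 0 calls by edgeR and 4, 3, 3 and 2 unadjusted p under 0.05. DESeq2 called 1, 1, 1 and 0 of them, and 1, 4, 2 and 1 were called in the authors' deposited table. Pth1r, receptor of parathyroid hormone-related protein, averaged 520 CPM in ERalphaKO E2 libraries and 838 CPM in WT E2 libraries (-0.69 ± 0.15, adjusted p = 0.0605). In the authors' deposited table its adjusted p was 0.00085. Of 15 hedgehog and PTHrP genes edgeR called 0, with 6 unadjusted p under 0.05, DESeq2 called 3, and 4 were called in the authors' deposited table.

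Under placebo the genotype comparison gave 0 higher and 2 lower genes, A2m and Esr1 (0.0135% of genes tested, edgeR), with 1325 unadjusted p under 0.05 in either direction, and DESeq2 called 123 higher and 27 lower. The median log2 fold change under placebo of the 96 genes lower under E2 was -0.15, with 66 negative where 47.9% of all genes were, and that of the 67 higher genes was 0.23, with 52 positive where 52.1% of all genes were. The 2 comparisons share no library, though placebo holds 2 WT libraries.

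**Figure D4:**
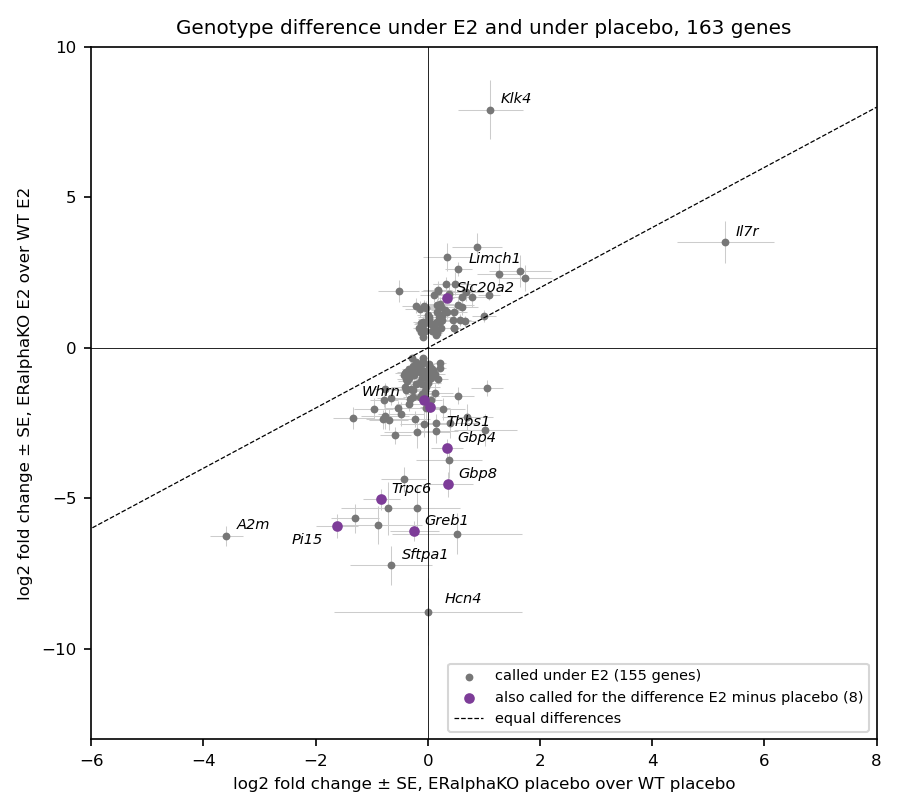
For the 163 called genes, the log2 fold change of ERalphaKO placebo over WT placebo (horizontal) and of ERalphaKO E2 over WT E2 (vertical), each ± SE. The median on the placebo axis is -0.15 for lower and 0.23 for higher genes, and A2m lies at -3.59. Values of Hcn4 and Klk4 depend on the prior count.

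Whether the genotype difference was another under E2 than under placebo was tested as an interaction. It passed for 8 genes (0.0539% of those tested), 7 with a more negative difference under E2 and 1, Slc20a2, with a more positive one (1.31 ± 0.18, adjusted p = 0.0429). The others were Greb1 (-5.85 ± 0.56, adjusted p = 0.00862), Gbp4 (-3.66 ± 0.41, adjusted p = 0.0202), Trpc6 (-4.21 ± 0.49, adjusted p = 0.0202), Gbp8 (-4.89 ± 0.61, adjusted p = 0.025), Thbs1 (-2.01 ± 0.25, adjusted p = 0.025), Pi15 (-4.29 ± 0.56, adjusted p = 0.0292) and Whrn (-1.67 ± 0.23, adjusted p = 0.0327). For A2m the interaction gave -2.65 ± 0.44 (adjusted p = 0.0782). The 8 calls were sensitive to the libraries: Greb1 was kept in 11 of 12 omissions and failed once WT placebo replicate 1 was dropped (adjusted p = 0.0598), while the other 7 were kept in 2 to 6. Without WT placebo replicate 1 edgeR called 0 genes, with 711 unadjusted p under 0.05, and with muscle markers as a covariate 0 genes, with 1077. DESeq2 called 102.

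**Figure D5:**
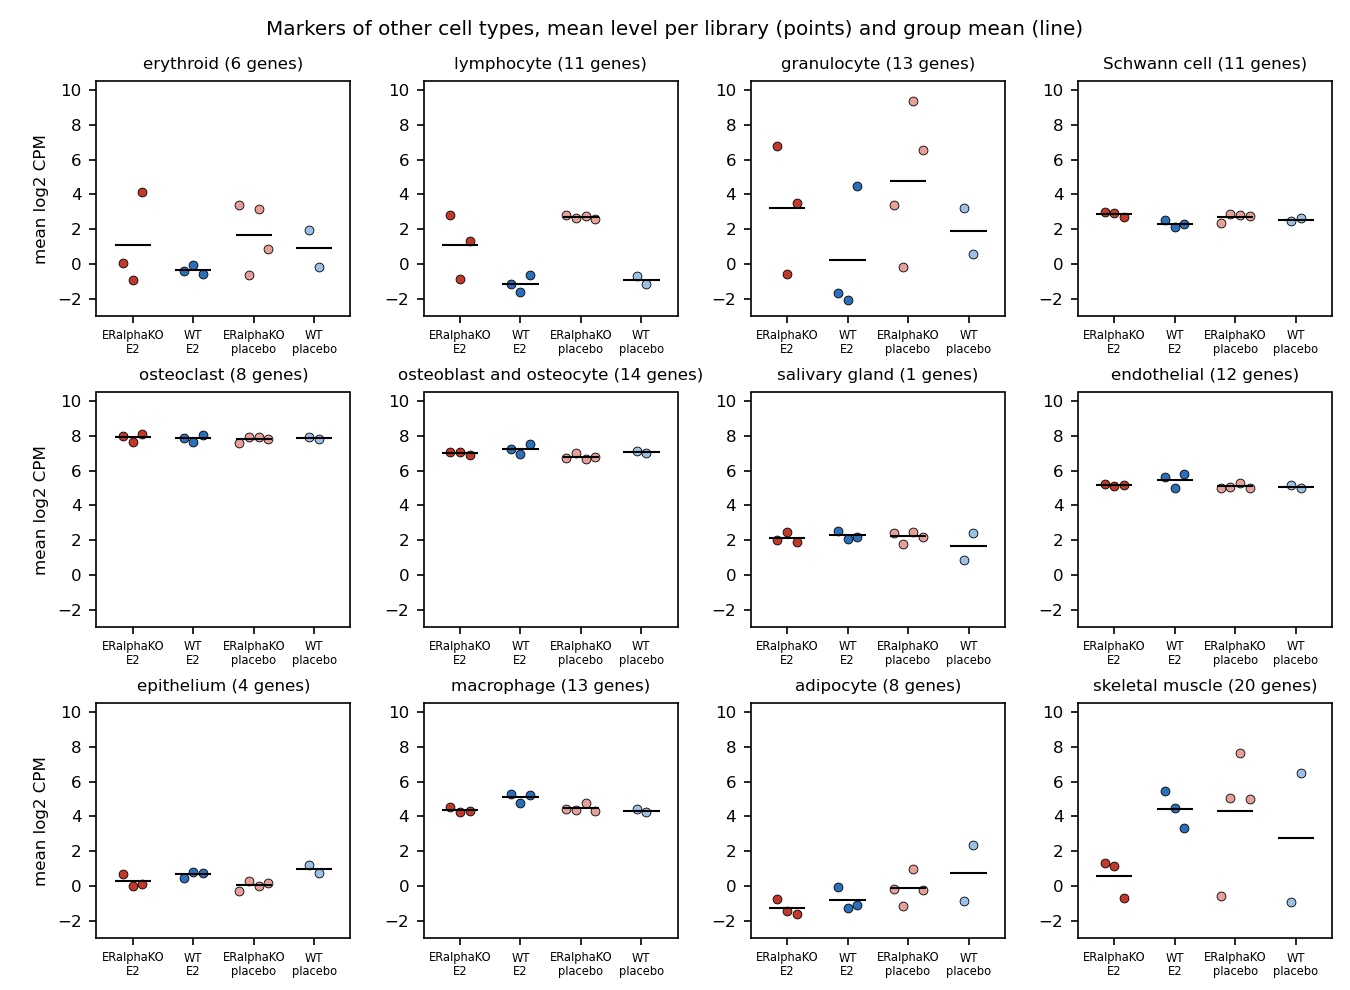
Mean log2 CPM of each of the 12 marker lists in each library, by group, ERalphaKO E2 leftmost. Skeletal muscle and macrophage markers are lower in all 3 ERalphaKO E2 libraries than in all 3 WT E2 libraries. Granulocyte, erythroid and lymphocyte markers overlap between the E2 groups, while under placebo lymphocyte markers are higher in ERalphaKO without overlap.

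Markers of other cells were unevenly spread. Muscle markers in the placebo libraries ranged from -0.58 to 7.64 in ERalphaKO and stood at -0.93 and 6.48 in WT, so they spread widely within both genotypes. Lymphocyte markers in the placebo libraries ranged from 2.55 to 2.81 in ERalphaKO and stood at -0.71 and -1.18 in WT, without overlap. Their values in ERalphaKO E2 libraries were 2.81, -0.90 and 1.33, so the overlap under E2 came from replicate 2. Erythroid markers were 0.03, -0.93 and 4.12 in ERalphaKO E2 libraries and -0.42, -0.08 and -0.61 in WT E2 libraries. Endothelial markers overlapped (5.13 to 5.22 in ERalphaKO E2 libraries, 4.99 to 5.79 in WT E2 libraries), as did osteoclast, osteoblast, adipocyte, epithelial and salivary gland markers. Greb1, A2m, Pi15, Trpc6, Gbp4, Gbp8, Thbs1, Siglec1, Limch1, Slc20a2 and Cd59a passed the test for genotype under E2 when muscle markers, or granulocyte markers, entered as a covariate.

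The authors' deposited table of the same comparison gave 545 genes with an adjusted p under 0.05 of 14548 with a value (3.75%), 359 lower and 186 higher. It held all 163 genes called here, each in the same direction, which is 29.9% of its calls.

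Calls that ended when single libraries were left out shared patterns. The calls of Gbp9, Jak1, Cd86, C3ar1, Mef2c, Lrp4, Tgfbr3 and Fstl1 ended without either WT placebo library, WT E2 replicate 1 or 3, or ERalphaKO E2 replicate 3, among others. Those of Rarb, Akr1c14, Pappa, Notch3, Lama1, Col28a1, Cacna1h, Sstr2 and Il7r ended without either WT placebo library, WT E2 replicate 2 or ERalphaKO E2 replicate 1, among others. Csf1, Cytl1 and Inhbb lost their calls in the same omissions as Cilp, and Adamts5, Fzd10, Wnt4, Frmd3 and Fetub in the same as Sost. Nlrc5 ended without WT E2 replicate 1 or any 1 of the ERalphaKO E2 libraries, and Sox10 without WT E2 replicate 3 or ERalphaKO E2 replicate 1. The genes of both of these sets other than Gbp9, with Pgr, Csf1, Wnt4, Inhbb, Frmd3 and Fetub, also lost their calls with muscle markers as a covariate. With granulocyte markers as a covariate the calls of Akr1c14, Il7r, Lrp4, Pappa, Rarb and Sstr2 ended. With only the 6 E2 libraries in the fit, the genes of both sets lost their calls, as did Chl1, Csf1, Cx3cr1, Cytl1, Fetub, Frmd3, Fzd10, Nlrc5, Ptx3, Sost, Sox10 and Wnt4. Genes named without a call beyond the most counted member of a list, among them Stc2, Bst2, Chad, Col2a1, Ibsp, Cd68 and Csf1r, were chosen after their values were seen.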

How the data were processed

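RNA-seq was made from dissected mandibular condylar fibrocartilage. Per the submitters' processing notes, base calling used bcl2fastq 2.17, alignment used TopHat, and the genome build was mm9. The deposited table holds raw counts per gene and library. The counter, annotation and strand setting are not given in the sources used here. Antisense and overlapping genes cannot be told apart. The authors' deposited table of this comparison holds a mean signal per gene (baseMean), log2 fold changes with standard errors, a test score (stat) and p-values with adjusted p-values, per the file headers.

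Counts were tested with the edgeR 4.0.16 quasi-likelihood test in R 4.3.3, with TMM scaling, filterByExpr at a minimum count of 10, 4 group means over all 12 libraries (8 residual degrees of freedom), and Benjamini-Hochberg adjustment over 14832 genes at 0.05. DESeq2 1.42.0 served as an alternative and limma 3.58.1 as a dependency. Standard errors are the log2 fold change divided by the root of F. Log2 CPM used a prior count of 2. Counting intervals are exact at 95% and, like the floor of 3 counts, cover counting error only. Fits were tested on simulated data.

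Named genes were Esr1, the 15 largest called changes in each direction that reached 1 CPM on average in the higher group without overlap, up to 3 called members of each list (or its most counted member), and up to 5 interaction genes. Predicted genes, 7 of the calls, were counted but not named, and some genes that the rule gives are not reported here. Members and lists were chosen with earlier results of these data known. The alternatives tried were the 6 libraries alone, DESeq2, other size factors, no or a stricter low-count filter, the replicate number as a block, marker levels as covariates, and leaving out each library. The labels give no pairing beyond a replicate number, and the main fit treated the samples as unpaired.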

Additional observations from a re-analysis of the deposited data

Results flagged for a closer look

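Among the 4 ERalphaKO placebo libraries, 9 of 87 values checked had 1 library far from the other 3, where chance flags about 1 in 20 groups. Replicate 3 held 0.8522 CPM of A2m (others 1.855 to 2.03), 2.053 CPM of Fetub (3.379 to 3.591), 9.645 CPM of Cadps2 (14.18 to 15.34), 125.9 CPM of Slc20a2 (152.6 to 154.8), and a mean log2 CPM of endothelial markers of 5.298 (5.019 to 5.05). Replicate 1 held 250.3 CPM of Limch1 (212.6 to 216.5) and 567.5 CPM of Cilp (306.2 to 320.5). Replicate 2 held 47.54 CPM of Cd59a (39.78 to 40.75), and replicate 4 held 0.08045 CPM of Hcn4 where the others had 0, which is 2 counts, under the floor of 3 counts, and shows no difference.

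The difference between ERalphaKO and WT was not the same under E2 as under placebo for 8 genes in the interaction test of edgeR. On the log2 scale, E2 minus placebo, it was -5.847 for Greb1, -4.891 for Gbp8, -4.29 for Pi15, -4.21 for Trpc6, -3.662 for Gbp4, -2.014 for Thbs1, -1.674 for Whrn and 1.307 for Slc20a2.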

How the results depend on the processing

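The main counts were 67 higher and 96 lower genes under E2, 8 interaction genes, and 0 higher and 2 lower genes under placebo. With only the 6 libraries of each comparison there were 10 higher and 56 lower genes under E2 and 0 lower under placebo. DESeq2 gave 245 higher and 252 lower under E2, 102 interaction genes, and 123 higher and 27 lower under placebo. With muscle markers as a covariate there were 25 higher and 56 lower under E2, 0 interaction genes and 1 lower under placebo. With granulocyte markers there were 37 interaction genes and 5 lower under placebo. Leaving out each library in turn gave 16 to 82 higher and 35 to 172 lower under E2, 0 to 31 interaction genes, and 0 to 2 higher and 1 to 2 lower under placebo. Other size factors and both other low-count filters kept all E2 counts within 1.5 times of the main ones. Of the 163 calls, 35 were kept under every alternative. The cause of these shifts was not tested.

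With the replicate number as a block there were 19 higher and 43 lower genes under E2, 3 interaction genes and 0 lower under placebo. Same-numbered libraries correlated between -0.081 and 0.304, with 1 of 3 pairs above 0.1 and 1 library closest to its own number. So few libraries cannot decide whether same-numbered samples were paired, and the labels give only the number.

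Direction changed only for genes that were not called. Ctgf gave 0.06749 with the block, 0.01402 with muscle markers, and -0.4583 to 0.6454 without single libraries. With muscle markers Acta1 gave 0.5447, Amy1 0.1581 and Acp5 0.05027, and with granulocyte markers Fabp4 gave -0.07053. Without single libraries Pkm2 ranged from -0.00263 to 0.1525, Eng from -0.2964 to 0.07799, Fabp4 from -0.03794 to 0.8582 and Acp5 from -0.154 to 0.09469. Depth limits the genes near the floor of 3 counts, Pgr, Ripk4, Fam196b, Hcn4 and Klk4. Among others, Sox10, with a mean of 0.0986 CPM in WT E2 libraries, and Pik3c2g, with 7, 5 and 1 counts there, also rested on few counts in the lower group.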

Other observations

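Neighbouring positions of the called genes were looked at after their values were seen, in the RefSeq gene order of GRCm38, where 14729 tested genes had a place. There were 12 pairs of called genes that were adjacent or had 1 tested gene between them. How many such pairs 163 genes placed at random would form was not tested. Trpc6 and Pgr, Asgr2 and Mgl2, and Gbp8, Gbp9, Gbp4 and Gbp6 stood together and were lower in ERalphaKO E2 libraries than in WT E2 libraries. Tfcp2 and Pou6f1 were both lower, as were Nlrc5 and its neighbour, a predicted gene. The 5 other pairs differed in direction, among them Ptx3 (higher) with Shox2 (lower). Of the 17 tested genes nearest to Esr1, 0 were called by edgeR under E2, with log2 fold changes between -0.44 and 3.57.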
